A study of Homo sapiens with 6 samples.

Results

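Expression of 10 genes of the NF-kB pathway was examined in the human liver cancer line Huh7 after 24 h with carfilzomib or with DMSO, the solvent. The genes encode 4 subunits of the transcription factor (NFKB1, NFKB2, RELA and RELB), 3 of its inhibitors (NFKBIA, NFKBIB and NFKBIE) and 3 feedback or target genes (TNFAIP3, TNFAIP2 and BIRC3). They were chosen by gene symbol and not by measured values, although earlier results of these data were known. All 10 were found among the 19021 rows of the deposited table. Carfilzomib is an irreversible inhibitor of the proteasome. The sources used here give no dose. The carfilzomib group and the DMSO group have 3 RNA sequencing libraries each, both of Huh7 cells with the genotype label WT. The labels do not tell separate cultures from repeats of 1 culture, and the spread behind every p-value may therefore be technical.

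NF-kB is a family of dimeric transcription factors that switch on genes of inflammation and cell survival. In resting cells the dimers are held in the cytoplasm by inhibitors, the IkB proteins. When receptors such as those for TNF or interleukin-1 are engaged, the IKK kinases phosphorylate the IkB proteins, which are then ubiquitinated and destroyed by the proteasome. The proteasome is used again in the alternative branch of the pathway, where it trims the NFKB2 precursor protein to a mature subunit that pairs with RELB. In liver cells the pathway is known for the inflammatory response and for protection against death induced by TNF. Several of the genes are themselves switched on by NF-kB, which makes the inhibitors and the ubiquitin enzymes among them part of a negative feedback loop.

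Letters that match the NF-kB binding site lie close to the start of several of these genes. In RefSeq promoter windows (build GRCh38.p14, 250 bases before to 50 bases after a start site), 8 of the 10 genes had at least 1 window, 13 windows in all. RELB and NFKBIE had none. Both strands were searched for the NF-kB consensus, the degenerate site of 10 bases bound by the dimers. It was found in the windows of 6 of the 8 genes, in 7 of the 13 windows, at 11 separate places. Of all 27305 genes with a window, 7.09% held a match, and of all 35116 windows, 5.91%. The stretches around the matches are shown because they place the letters that NF-kB subunits recognise in the genes of the pathway itself. Each is written from 5′ to 3′ on the gene's strand with the matches in capitals. Where 2 matches overlap they form 1 run of capitals.
NFKB1 (chr4:102501290-102501339, + strand): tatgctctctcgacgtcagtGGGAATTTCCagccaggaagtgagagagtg
NFKB2 (chr10:102394451-102394529, + strand): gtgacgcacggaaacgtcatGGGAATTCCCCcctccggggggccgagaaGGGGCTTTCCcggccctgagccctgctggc
NFKB2 (chr10:102395509-102395558, + strand): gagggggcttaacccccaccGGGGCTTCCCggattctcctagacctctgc
NFKB2 (chr10:102395664-102395713, + strand): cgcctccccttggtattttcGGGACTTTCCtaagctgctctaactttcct
NFKBIA (chr14:35404801-35404850, - strand): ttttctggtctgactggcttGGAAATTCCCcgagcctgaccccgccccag
NFKBIB (chr19:38899921-38899971, + strand): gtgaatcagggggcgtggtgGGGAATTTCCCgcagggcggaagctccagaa
TNFAIP3 (chr6:137867172-137867233, + strand): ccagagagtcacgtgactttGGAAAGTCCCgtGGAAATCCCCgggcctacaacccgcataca
BIRC3 (chr11:102317265-102317378, + strand): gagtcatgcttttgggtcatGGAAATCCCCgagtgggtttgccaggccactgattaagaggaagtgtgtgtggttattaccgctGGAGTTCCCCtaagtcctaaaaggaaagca

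Positions are counted in bases from the start site, with negative values before it. TNFAIP3 held matches beginning at -67 and -55, NFKB1 at -49 and NFKBIA at -81. NFKB2 held matches in 2 of its 3 windows, and those windows belong to alternative start sites. RELA and TNFAIP2 held none in these windows. TGANTCA, a looser form of the site of AP-1 factors, occurred in 1 of the 13 windows (7.71% of all windows). That match, in NFKBIB, reads TGAATCA, with A at the open position, so it is a match to the looser form only. The heat shock patterns GAANNTTC and TTCNNGAA, which read alike on both strands, occurred in none (0) of the 13 windows (6.77% and 7.74% of all windows). A match is a description of the letters and was not tested for binding.

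**Figure D1:**
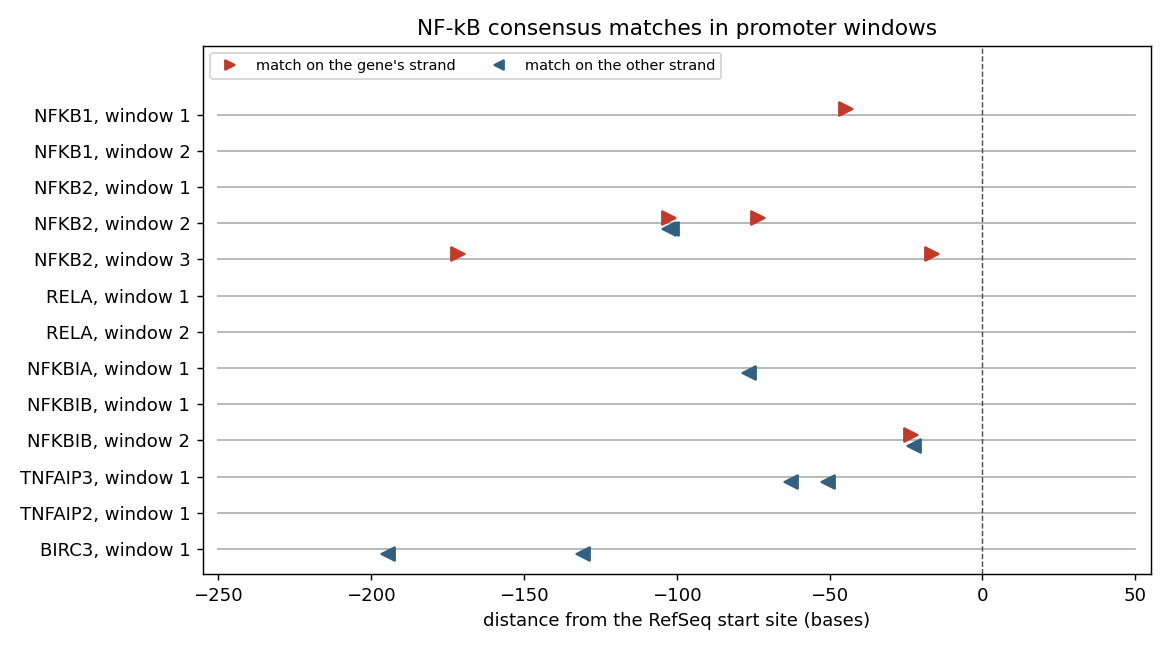
Places of NF-kB consensus matches in the 13 RefSeq promoter windows of 8 genes, with the distance from the start site in bases on the x axis. Right-pointing marks are matches on the gene's strand and left-pointing marks are matches on the other strand, each drawn at the centre of the match. The 2 TNFAIP3 matches begin at -67 and -55, and RELA and TNFAIP2 have no mark.

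Library totals were recovered from the FPKM values and were 38386581 to 39651170 reads, of which 99.60% to 99.64% fell in the listed genes. They are the totals behind the FPKM scaling and may be lower than the sequencing depth. By the same recovery, 468 to 10357 reads fell on each of the 10 genes in each library. Levels are in FPKM, fragments scaled by gene length and library size, as the authors deposited them, so levels of different genes can be set side by side. Differences were tested by limma on log2(FPKM + 1) over the 11153 genes with a mean of at least 1 FPKM, which all 10 genes passed, with Benjamini-Hochberg adjustment over all of them and calls at an adjusted p under 0.05. All 8 of 8 hepatocyte markers averaged above 1 FPKM in both groups, and their summed level was 3645 to 3772 FPKM with carfilzomib and 8854 to 9051 FPKM with DMSO. Of 4 leukocyte markers in the table, LYZ and CD68 averaged above 1 FPKM over the 6 libraries, and PTPRC, which marks all leukocytes, reached at most 0.0196 FPKM. The leukocyte list summed to 203 to 232 FPKM with carfilzomib and 346 to 358 FPKM with DMSO. LYZ made up most of that sum, at 172 FPKM with carfilzomib and 319 FPKM with DMSO, while CD68 went the other way, at 46.9 FPKM with carfilzomib and 33.2 FPKM with DMSO. The part of these marker lists in the results was not tested. DMSO replicate 1 was the lowest of its group in 41.8% of the genes tested, and leaving it out changed none (0) of the calls on the 10 genes.

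With carfilzomib some NF-kB genes rose and others fell, each by less than 2-fold. NFKB2, RELA, RELB, NFKBIB and BIRC3 rose, by 18.8% to 71.1% in mean FPKM. In mean FPKM, TNFAIP2 fell by 32.4%, NFKB1 fell by 20.8%, NFKBIE fell by 18.9% and TNFAIP3 fell by 9.39%. NFKBIA, the most abundant of the 10, did not pass the test. The drug moved most expressed genes, and 81.6% of all genes tested were called, 36.7% higher and 44.9% lower (4089 and 5007 genes, a split that became 4572 and 4507 after median-of-ratios scaling), so 9 calls among 10 genes are near that background. None (0) of the 10 reached a difference of 1 on the log2 scale (2-fold), a size that 13.1% of all genes tested reached in 1 direction or the other. The median difference of the 10 genes was 0.14 on the log2(FPKM + 1) scale, and that of all genes tested was -0.07. In bulk RNA, fewer cells with a transcript and less of it per cell cannot be told apart.

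**Figure D2:**
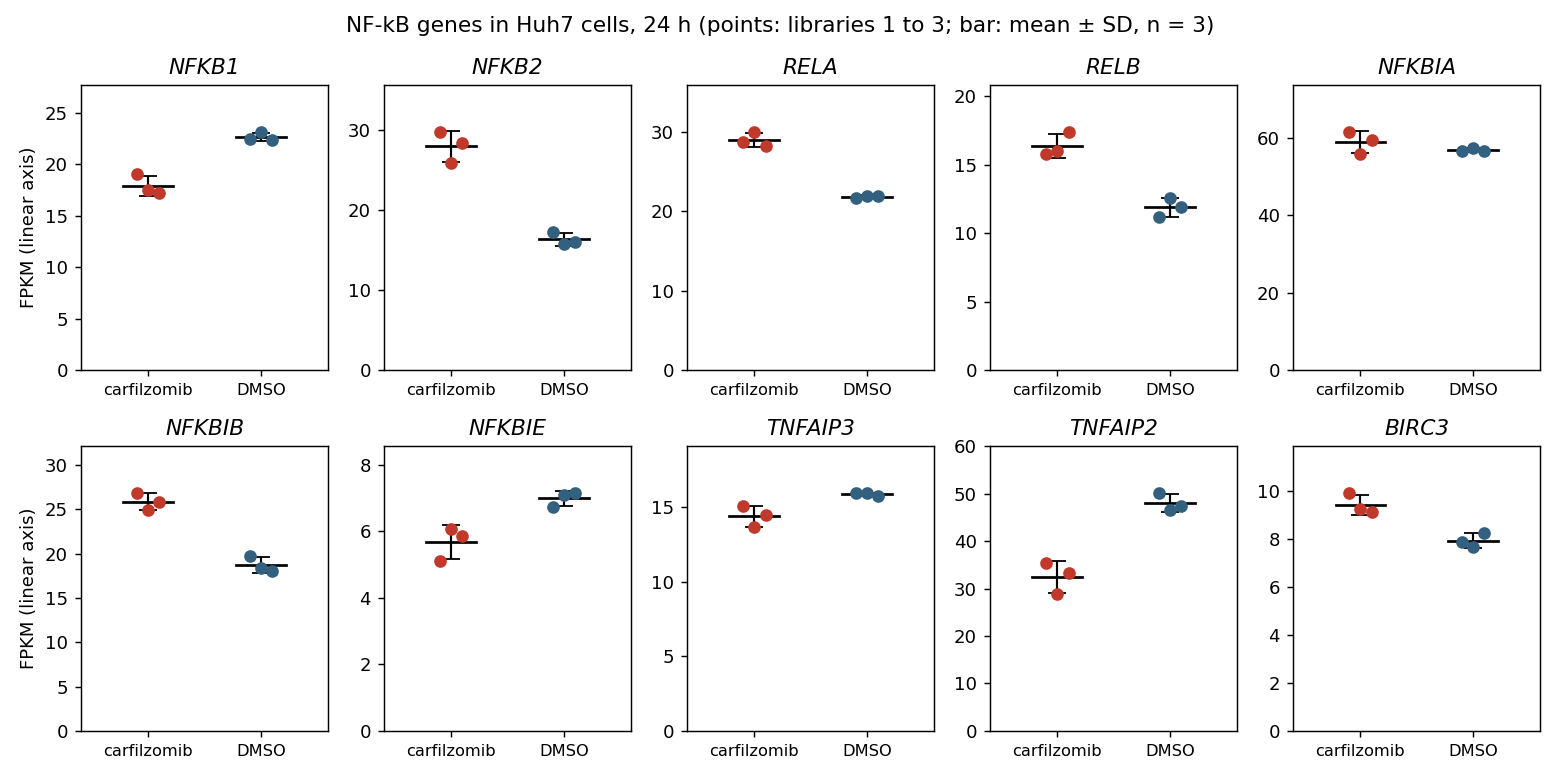
FPKM of the 10 NF-kB genes on a linear axis from 0, with carfilzomib on the left and DMSO on the right of each panel. Points are the 3 libraries of a group in the order of their replicate numbers and bars are the mean ± SD (n = 3). The groups are apart in every panel except that of NFKBIA.

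The subunit genes moved in both directions, and NFKB2 changed most. NFKB2 encodes a precursor protein that restrains RELB until the proteasome trims it to the mature subunit. It had 29.7, 25.8 and 28.4 FPKM in the carfilzomib libraries, against 17.2, 15.7 and 16.0 FPKM in the DMSO libraries. Every carfilzomib library lay above every DMSO library, and the mean was 27.9 ± 1.97 FPKM with carfilzomib and 16.3 ± 0.806 FPKM with DMSO (SD, n = 3), a ratio of 1.71. The difference was 0.74 on the log2(FPKM + 1) scale (95% interval 0.62 to 0.86, adjusted p = 6.81e-07 by limma). It ranked 1072 from the top of the 11153 genes tested. Among these 10 genes, 9 of which had groups that did not overlap (82.8% of all genes tested), no other difference was as large.

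NFKB1, the sister gene of NFKB2 and the source of the partner of RELA in the most common NF-kB dimer, went the other way. It had 19.1, 17.5 and 17.3 FPKM with carfilzomib, against 22.4, 23.1 and 22.4 FPKM with DMSO. The highest carfilzomib library was below the lowest DMSO library. Its difference was -0.32 (95% interval -0.42 to -0.23, adjusted p = 5.95e-05 by limma), which is smaller in size than that of NFKB2. The ratio of NFKB2 to NFKB1 was 1.56 ± 0.0831 with carfilzomib and 0.722 ± 0.0445 with DMSO (SD, n = 3), with NFKB2 the higher of the pair in all 3 carfilzomib libraries and the lower in all 3 DMSO libraries.

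RELA and RELB, which carry the domains that activate transcription, both rose. RELA, the activating subunit of the classical branch, had 28.8, 29.9 and 28.2 FPKM with carfilzomib, against 21.6, 21.97 and 21.9 FPKM with DMSO. The 3 DMSO libraries lay close together and below every carfilzomib library, and the difference was 0.39 (95% interval 0.31 to 0.47, adjusted p = 2.56e-06 by limma). RELB, the activating subunit of the alternative branch, had 15.8, 16.0 and 17.4 FPKM with carfilzomib, against 11.2, 12.6 and 11.9 FPKM with DMSO. Here too the groups did not overlap, and the difference was 0.43 (95% interval 0.31 to 0.55, adjusted p = 2.89e-05 by limma). The ratio of RELA to RELB was 1.77 ± 0.131 with carfilzomib and 1.84 ± 0.0924 with DMSO, values that lie within 1 SD of each other.

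The summed level of the 4 subunit genes was 91.2 ± 2.05 FPKM with carfilzomib and 72.7 ± 0.593 FPKM with DMSO (SD, n = 3). Their make-up differed as well. NFKB1 was 19.7 ± 0.752% of the sum with carfilzomib and 31.1 ± 0.296% with DMSO, while NFKB2 was 30.6 ± 1.5% with carfilzomib and 22.5 ± 1.2% with DMSO. With carfilzomib NFKB1 stood below RELA and NFKB2, its 3 libraries overlapping those of RELB. With DMSO it stood first, above RELA. RELA was 31.8 ± 1.54% and RELB 18.0 ± 1.06% of the sum with carfilzomib, against 30.04 ± 0.266% and 16.4 ± 0.853% with DMSO. These shares are taken within each library, so the scaling between libraries does not enter them, and they were not tested.

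**Figure D3:**
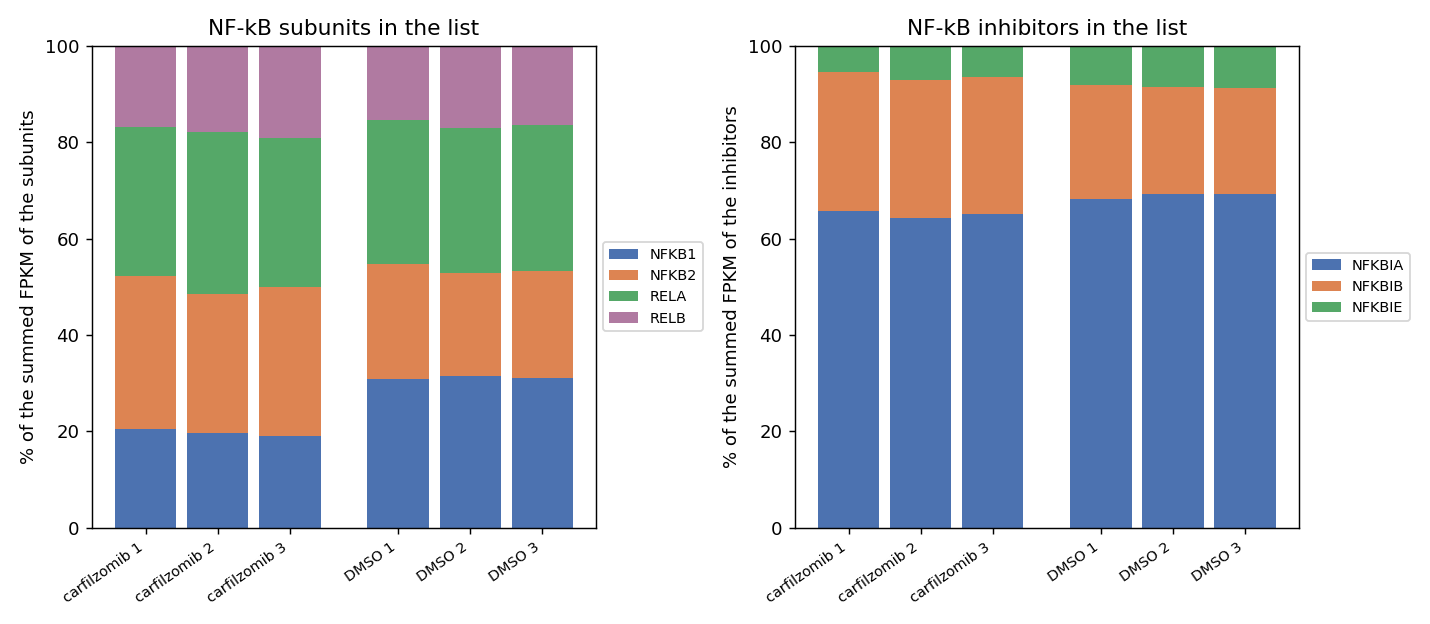
Share of each gene in the summed FPKM of the 4 subunit genes (left) and of the 3 inhibitor genes (right), in percent, 1 bar per library with carfilzomib before DMSO. The NFKB1 segment is 18.9% to 20.4% of the carfilzomib bars and 30.9% to 31.5% of the DMSO bars.

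The 3 inhibitor genes did not move together, since NFKBIB rose, NFKBIE fell and NFKBIA did not pass the test. NFKBIA encodes IkB-alpha, the inhibitor that is destroyed first after stimulation and is quickly made again under the control of NF-kB. It had 61.4, 55.9 and 59.4 FPKM with carfilzomib, against 56.6, 57.4 and 56.6 FPKM with DMSO. Carfilzomib replicate 2 lay below all 3 DMSO libraries and the other carfilzomib libraries lay above them, so the groups overlapped. The difference was 0.05 (95% interval -0.03 to 0.13, adjusted p = 0.232 by limma), which leaves room for a change of up to 0.13 on the log2 scale. It passed in 2 of 17 other settings, at 0.086 without carfilzomib replicate 2 (limma, adjusted p = 0.0388) and at 0.13 after median-of-ratios scaling (adjusted p = 0.00965). Its adjusted p lay between 0.00965 and 0.837 in those 17 settings.

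NFKBIB, which encodes IkB-beta, rose. It had 26.8, 24.9 and 25.9 FPKM with carfilzomib, against 19.7, 18.4 and 18.0 FPKM with DMSO, with no overlap between the groups. The difference was 0.45 (95% interval 0.35 to 0.55, adjusted p = 5.78e-06 by limma). In the GENCODE 29 annotation 40 exon bases of NFKBIB overlap those of SIRT2 on the other strand, and SIRT2 had 12.9 FPKM with carfilzomib and 18.2 FPKM with DMSO. RELA shares 9 exon bases with a non-coding gene on the other strand. The gene lengths recovered from the FPKM values were 2536 bases for NFKBIB and 2547 bases for RELA. GENCODE 29 gives 2130 and 3387 exon bases, so the counted gene models differ and their overlaps are unknown. Whether strand was used in the counting is also unknown.

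NFKBIE, which encodes IkB-epsilon, was the lowest of the 10 genes and fell. It had 5.09, 6.07 and 5.85 FPKM with carfilzomib, against 6.73, 7.10 and 7.14 FPKM with DMSO, which is 468 to 664 reads per library. The difference was -0.26 (95% interval -0.40 to -0.12, adjusted p = 0.00283 by limma). With quantile normalization it was -0.14 and missed the threshold (limma, adjusted p = 0.052), and the 17 other settings gave adjusted p between 0.00208 and 0.052.

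The inhibitors together summed to 90.5 ± 3.25 FPKM with carfilzomib and 82.6 ± 0.725 FPKM with DMSO (SD, n = 3). Set against the subunits, they gave 0.992 ± 0.0145 FPKM per FPKM of subunit with carfilzomib and 1.14 ± 0.00927 with DMSO. Each of the 3 carfilzomib libraries was below each of the 3 DMSO libraries in this ratio. NFKB2 counts as a subunit here although its precursor protein also restrains RELB, and its rise enters the subunit sum. The ratio is one of RNA levels, and inhibition was not measured. NFKBIA held 65.1 ± 0.738% of the inhibitor sum with carfilzomib and 68.9 ± 0.632% with DMSO, and NFKBIB 28.6 ± 0.177% with carfilzomib and 22.7 ± 0.952% with DMSO.

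Of the feedback and target genes, TNFAIP2 and TNFAIP3 fell and BIRC3 rose. TNFAIP3 encodes A20, a ubiquitin-editing enzyme that shuts the pathway off downstream of TNF receptors. It had 15.1, 13.7 and 14.5 FPKM with carfilzomib, against 15.9, 15.9 and 15.8 FPKM with DMSO. The groups did not overlap, but the difference was small, -0.13 (95% interval -0.23 to -0.04, adjusted p = 0.0136 by limma). TNFAIP3 missed the threshold in 3 of 17 other settings. These were median-of-ratios scaling (-0.062, limma adjusted p = 0.186), rescaling to TPM (-0.10, 0.0734) and leaving out carfilzomib replicate 2 (-0.10, 0.0507). The lowest adjusted p among the 17 was 0.00173.

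TNFAIP2 encodes a protein of membrane protrusions and was first found as a transcript induced by TNF. It had 35.3, 28.8 and 33.2 FPKM with carfilzomib, against 50.1, 46.4 and 47.4 FPKM with DMSO. All 3 carfilzomib libraries lay below all 3 DMSO libraries, and the difference of -0.55 (95% interval -0.70 to -0.41, adjusted p = 2.26e-05 by limma) was the largest fall of the 10. It also had the widest spread among the carfilzomib libraries, with an SD of 10.3% of the mean, against 3.93% among the DMSO libraries.

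BIRC3 encodes cIAP2, a ubiquitin ligase that takes part in signalling from TNF receptors and in the destruction of the kinase NIK. It had 9.92, 9.27 and 9.12 FPKM with carfilzomib, against 7.88, 7.68 and 8.28 FPKM with DMSO. The groups did not overlap, and the difference was 0.22 (95% interval 0.11 to 0.33, adjusted p = 0.00175 by limma).

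**Figure D4:**
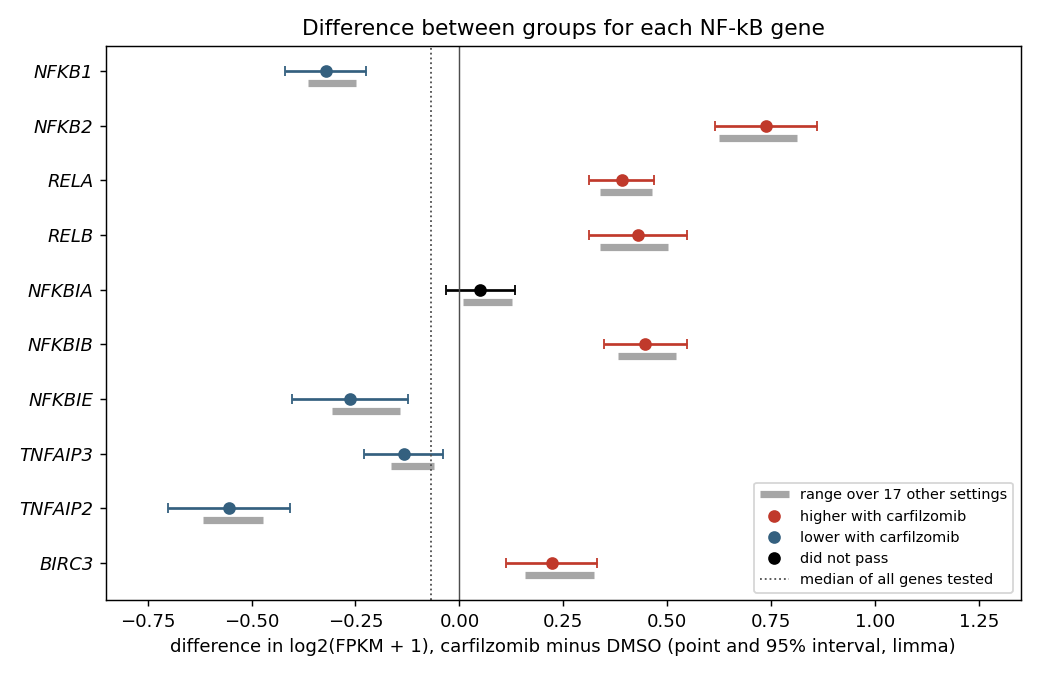
Difference in log2(FPKM + 1), carfilzomib minus DMSO, for each of the 10 genes, with its 95% interval from limma. Grey bars give the range of the difference over 17 other settings. NFKB2 is highest at 0.74 and TNFAIP2 lowest at -0.55, and the interval of NFKBIA, -0.03 to 0.13, spans 0.

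Levels among the 10 genes spanned about an order of magnitude in both groups. With carfilzomib the order from the top was NFKBIA, TNFAIP2, RELA, NFKB2, NFKBIB, NFKB1, RELB, TNFAIP3, BIRC3 and NFKBIE. Neighbours from TNFAIP2 down to NFKBIB had overlapping libraries, as did NFKB1 and RELB. With DMSO the order was NFKBIA, TNFAIP2, NFKB1, RELA, NFKBIB, NFKB2, TNFAIP3, RELB, BIRC3 and NFKBIE, and of these neighbours only NFKB2 and TNFAIP3 overlapped. NFKBIA stood above 90.8% of the genes tested with carfilzomib and above 90.7% with DMSO. NFKBIE stood above 39.6% with carfilzomib and 42.8% with DMSO.

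In most of these 10 genes the carfilzomib libraries spread more than the DMSO libraries, which was not so over all genes tested. The genes were measured in the same libraries and are not independent, and the spread was not tested. In 8 of the 10 genes the SD relative to the mean was larger with carfilzomib, the exceptions being RELB and NFKBIB, and its median was 5.05% with carfilzomib and 3.51% with DMSO. Over all genes tested with a value in both groups, 49.9% had the larger relative SD with carfilzomib, and the medians were 4.44% with carfilzomib and 4.58% with DMSO. Carfilzomib replicate 1 was the highest of its group in 7 of the 10 genes, against 34.7% of all genes tested. Carfilzomib replicate 2 was the lowest in 5 of the 10, against 34.7% of all genes tested. Without replicate 1 or without replicate 3 of carfilzomib, all 9 calls on these genes were kept. Without replicate 2, 8 of the 9 were kept.

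The other genes of the pathway were read from lists chosen with earlier results of these data known, and the counts cover only genes past the filter on low values. MAP3K14, PLAUR, LTB, TNFSF10 and CXCL10, named among them, averaged under 1 FPKM in 1 group and passed the filter through the other, so the filter itself favoured a difference in them. Times given for single genes are ratios of mean FPKM. Of 6 tested genes for the remaining subunit, nuclear IkB proteins, a repressor and Ras-like proteins, 3 rose and 1 fell. The rises were in the repressor and the Ras-like genes, and no tested nuclear IkB gene was called. REL, the fifth subunit, had 2.01 ± 0.117 FPKM with carfilzomib and 2.56 ± 0.281 FPKM with DMSO (SD, n = 3, adjusted p = 0.0114 by limma), so it was far below the other subunits in both groups, and quantile normalization ended its call (limma, adjusted p = 0.174, the highest of 16 other settings, with 0.000374 the lowest). NKRF, a repressor that binds some NF-kB target promoters, rose 1.87 times. Of 16 tested kinase genes, 7 rose and 6 fell, beside 36.7% and 44.9% of all genes tested. MAP3K14, which encodes NIK, the kinase that starts the alternative branch by acting on the NFKB2 precursor, had 4.53 ± 0.161 FPKM with carfilzomib and 0.608 ± 0.00800 FPKM with DMSO (SD, n = 3), a ratio of 7.46. IKBKE, a kinase related to the IKK subunits, fell to 3.89 ± 0.372 FPKM with carfilzomib, against 9.97 ± 0.484 FPKM with DMSO.

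Among adaptors, ubiquitin ligases and negative regulators, more of the calls were rises than falls, while of all genes tested 36.7% rose and 44.9% fell and 81.6% were called in all. Of 21 tested adaptors and ubiquitin ligases, 14 rose and 3 fell, with a median difference of 0.30, against -0.07 for all genes tested. TICAM1, an adaptor of Toll-like receptors, rose 2.23 times, and TRAF3, an adaptor that keeps NIK low, fell to 4.13 ± 0.103 FPKM with carfilzomib, against 5.497 ± 0.215 FPKM with DMSO. Of 15 negative regulators, 10 rose and 2 fell (median 0.22), led by TRIB1, a pseudokinase, at 53.1 ± 0.998 FPKM with carfilzomib and 15.5 ± 1.14 FPKM with DMSO. The largest fall in that list was in CYLD, a deubiquitinase that limits the pathway, at 1.31 ± 0.125 FPKM with carfilzomib and 2.56 ± 0.0454 FPKM with DMSO, a difference of -0.63. CYLD is outside the rule for named genes and was chosen after its values were seen. Among 12 tested ligands and receptors, 8 rose and 4 fell (median 0.27), while 18 of the 30 listed were not in the main test. The receptors TNFRSF10A, for TRAIL, and TNFRSF12A, for TWEAK, rose 5.07 and 3.92 times, and the cytokine IL18 rose 3.68 times. TNFSF10, which encodes TRAIL, fell to 0.476 ± 0.155 FPKM with carfilzomib, against 2.48 ± 0.232 FPKM with DMSO, and the ligand LTB to 0.509 ± 0.192 FPKM with carfilzomib, against 2.88 ± 0.635 FPKM with DMSO.

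Textbook targets of NF-kB also moved both ways. Of 34 tested, 20 rose and 9 fell, beside 36.7% and 44.9% of all genes tested, of which 81.6% were called in all. By at least 2-fold, 8 rose and 2 fell, beside 5.28% and 7.84% of all genes tested. The 2-fold counts include genes, PLAUR and CXCL10 among them, that averaged under 1 FPKM in 1 group. On the log2(FPKM + 1) scale the largest rises were in IER3 (3.52 times), LIF (5.66 times), PLAUR, the urokinase receptor (8.45 times), and IER5 (3.53 times). CXCL10, a chemokine that interferon also controls, and PLAU, the protease urokinase, fell furthest, with differences of -3.57 for CXCL10 and -1.27 for PLAU on the log2(FPKM + 1) scale. The median difference of the list was 0.22, and some of its genes, such as REL, stand in another list too. These targets answer to other factors too, and which of them acted was not tested.

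**Figure D5:**
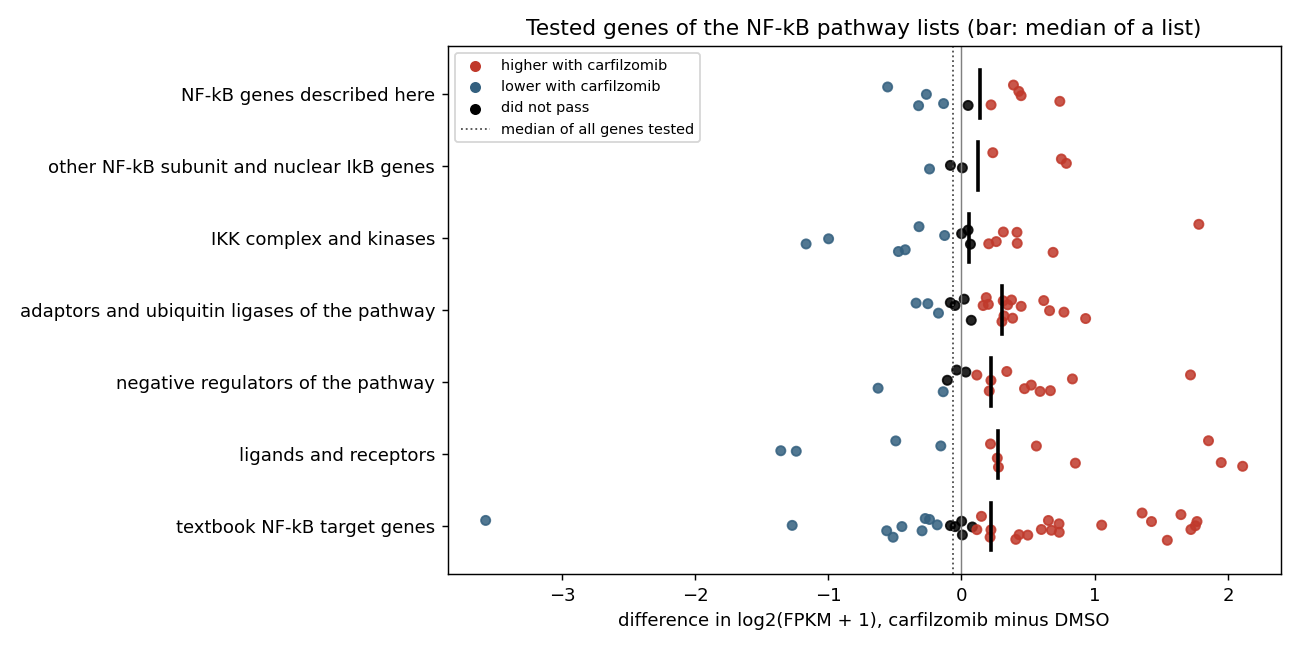
Difference in log2(FPKM + 1), carfilzomib minus DMSO, for each tested gene of 7 lists, 1 point per gene, with the median of each list as a bar and that of all genes tested (-0.07) as a dotted line. The 10 NF-kB genes lie between -0.55 and 0.74, and single genes of other lists reach 2.11 (TNFRSF10A) and -3.57 (CXCL10).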

How the data were processed

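RNA of 6 libraries was isolated with a mirVana kit and prepared with a TruSeq Stranded mRNA kit, per the labels' protocols. The authors deposited 1 table of FPKM values, with 19021 rows named by gene symbol, with human symbols for the 10 genes. Tools in the submitters' processing notes are DESeq2, HTSeq, HISAT2, fastp and R 3.2.0, with no role or order. The notes also name the build GRCm39, which is a mouse build, so the build behind the FPKM values is unclear. The promoter and exon coordinates given here are from human references and not from the authors' processing. Whole reads were recovered from the FPKM ratios between libraries in 19018 of 19021 rows (99.98%, with gene lengths within 1e-06 bases of a whole number or, in very high rows, reads within 0.001), including all 10 genes described here.

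The test was limma 3.58.1 in R 4.3.3 (trend, two-sided) on log2(FPKM + 1), which understates changes of low genes, over 11153 genes with a mean of at least 1 FPKM. The recovery of reads and the limma fit were tried on simulated data, and the other steps were not. The members were chosen by gene symbol and not by measured values. Earlier results of these data were known when the members, the lists and the tests were chosen. All 10 members were named, and of each other list at most 4 genes in each direction with a difference of at least 1, or else its largest called rise and fall. CYLD was added after its values were seen. Alternatives were other pseudocounts, filters, scalings, fits and each library left out. Recovered reads were fitted with limma-voom. No other count model was run. Promoter sequences are from RefSeq (GRCh38.p14), and exon overlaps from GENCODE 29. The NF-kB consensus was added to the planned patterns after the data were seen, and a planned looser NF-kB pattern is not reported here. No protein sequences were used here.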

Additional observations from a re-analysis of the deposited data

How the results depend on the processing

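All 10 genes kept the sign of their difference in all 17 other settings, and NFKB1, NFKB2, RELA, RELB, NFKBIB, TNFAIP2 and BIRC3 also kept their calls in all 17. NFKBIE lost its call with quantile normalization (-0.14, adjusted p = 0.052). TNFAIP3 lost its call with median-of-ratios scaling (-0.062) and rescaled to TPM (-0.10), and over libraries left out in turn its difference was -0.17 to -0.10. NFKBIA passed with median-of-ratios scaling (0.13), and over libraries left out in turn its difference was 0.020 to 0.086. The cause was not tested. The replicate block called 9 of the 10 genes and 9054 of all genes, against 9096 without it, and changed no call on the 10. The deviations of same-numbered libraries had correlations of -0.0121, -0.00341 and 0.0126, and 1 of 3 numbers correlated best with its own. No pairing was seen in these values. They cannot tell whether same-numbered libraries share a culture or a day, and the labels do not say. Genes called lower numbered 5007, and 3246 with a mean of at least 5 FPKM, where 7375 genes were tested. Scaling moved the median of all genes by at most 0.07, and median-of-ratios scaling gave 4572 higher calls beside 4507 lower ones, quantile normalization 4546 beside 4543. With limma-voom on recovered reads 9185 genes were called, 9 of the 10 among them. The shares of subunits and inhibitors moved by less than 1 SD when any library was left out, a setting added after the data were seen.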

Other observations

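Some genes of the NF-kB lists had a mean under 1 FPKM over the 6 libraries and were left out of the main test. The setting with no filter on low values, over 19021 genes, did include them, and its results for single genes are not given. They are given here by their reads, and were chosen after their values were seen. BCL2A1, a survival gene of the BCL2 family and a known NF-kB target, had 29, 77 and 30 reads in the carfilzomib libraries and 1, 0 and 1 reads in the DMSO libraries, with carfilzomib replicate 2 above the other carfilzomib libraries. IL1B, which encodes interleukin-1 beta, had 100, 77 and 77 reads with carfilzomib and 17, 18 and 24 reads with DMSO. TNFSF15, a TNF-family ligand, had 271, 248 and 231 reads with carfilzomib and 58, 50 and 51 reads with DMSO. NFKBID, a nuclear IkB protein, had 97, 73 and 86 reads with carfilzomib and 158, 179 and 207 reads with DMSO. In each of these 4 genes the groups did not overlap. The same held for 82.8% of the genes in the main test, a share that leaves out genes this low. Of the other list genes left out of the main test, some had groups that did not overlap. Others, TRAF1, TAP1 and CD83 among them, had groups that did overlap. The reads of these other genes are not shown.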
